A study of Mus musculus with 12 samples.

Results

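The 9 genes described here encode proteins that the liver secretes, or that act on them outside the cell: the activin subunits Inhba, Inhbc and Inhbe, the activin antagonist Fst (follistatin), the fetuins Ahsg and Fetub, the retinol carrier Rbp4, the leucine-rich protein Tsku (Tsukushi) and the stress hormone Gdf15. They were taken by symbol from a matrix of 56980 genes. Each symbol was on 1 row, and all 9 passed the filter on low counts. Bulk liver RNA was sequenced from 12 male ob/ob mice of strain B6.Cg-Lepob/J, all of genotype Lep-/-, so that both groups lacked leptin. Mice aged 8 weeks received chow with 25% of its energy from protein (standard protein diet, SPD, 6 mice) or 5% (low protein diet, LPD, 6 mice) for 3 weeks, ate freely, and gave livers at 11 weeks. The series title concerns amino acids as a carbon source for hepatic lipogenesis, and its design text asks how protein restriction acts on liver metabolism and steatosis.

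Hepatokines are proteins that hepatocytes release into blood to act on other tissues. Activins are dimers of inhibin beta chains and belong to the TGF-beta family: they bind type II and type I receptor kinases, which phosphorylate SMAD2 and SMAD3, and follistatin traps activin A before it reaches the receptor. The beta C and beta E chains are made mainly by hepatocytes, whereas the beta A chain is made in many tissues. Fetuins are abundant plasma proteins of the cystatin superfamily, RBP4 carries retinol from liver to tissues, and GDF15 is a hormone of cell stress that acts through a receptor in the hindbrain.

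Promoter sequence was read for the genes whose start lies in RefSeq's GRCm38.p6 table, which held 12 start windows for 8 of the 9 genes, all but Fst. Because ATF4 and C/EBP factors drive many stress-responsive liver genes, the 250 bases before each start were searched on both strands for TGATGNAA, the core of a C/EBP-ATF response element, and for TTGCNNAA, a C/EBP motif. No 8-base word can match both. The first was found in 2 of the 12 windows and in 3.45% of 32851 windows genome-wide, and the second in 3 of 12 and in 9.56%. The 30 bases around each match are shown 5′ to 3′ in the direction of the gene, with the match in capitals, because these are the places where the windows hold such letters.
Inhbe, first motif: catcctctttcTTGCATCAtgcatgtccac
Rbp4, first motif: ccttctaaagaTGATGAAAtgaaagaataa
Rbp4, second motif, at another start: gtcagggagcgTTATGCAAgctcggccgcc
Inhba, second motif: cacatctcttcTTTTGCAAttacagtaaaa
Ahsg, second motif: gtcccacgcctTTACGCAAttccttcggcg

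The Inhbe match begins 181 bases before the RefSeq start (chr10:127352011-127352040, minus strand), inside an untranslated exon of a longer protein-coding transcript of GENCODE M21. For Rbp4, the first match begins 76 bases before its start (chr19:38125379-38125408, minus strand), outside the annotated gene, and the second 128 bases before another start (chr19:38124921-38124950), in an intron of an annotated transcript. The Inhba match lies 67 bases before the start and outside the annotated gene (chr13:16011773-16011802, plus strand). That of Ahsg lies 32 bases before a RefSeq start and in an intron of a longer annotated transcript (chr16:22891972-22892001, plus strand). These matches are letters in a window and do not show binding.

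In the livers of mice on the low protein diet, 8 of the 9 mRNAs were higher and 1, Fst, was lower. For 7 genes all LPD livers lay above all SPD livers, for Fst all lay below, and Gdf15 overlapped. Of all 13768 genes tested, 39.9% were called at an adjusted p under 0.05, 20.7% higher and 19.2% lower. All LPD livers lay above all SPD livers for 10.2% of tested genes and below for 9.73%, or 19.9% without overlap. Tsku, Inhbe and Inhbc rose more than 2-fold, as 1.38% of tested genes did, and Fst fell more than 2-fold, as 3.41% did. The median log2 fold change over all tested genes was -0.0006. Each change below is a log2 fold change ± SE of LPD against SPD livers, 6 of each, from edgeR's quasi-likelihood test adjusted over all tested genes. Levels are in CPM, a gene's count scaled by the size of its library times a between-library factor (TMM).

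**Figure D1:**
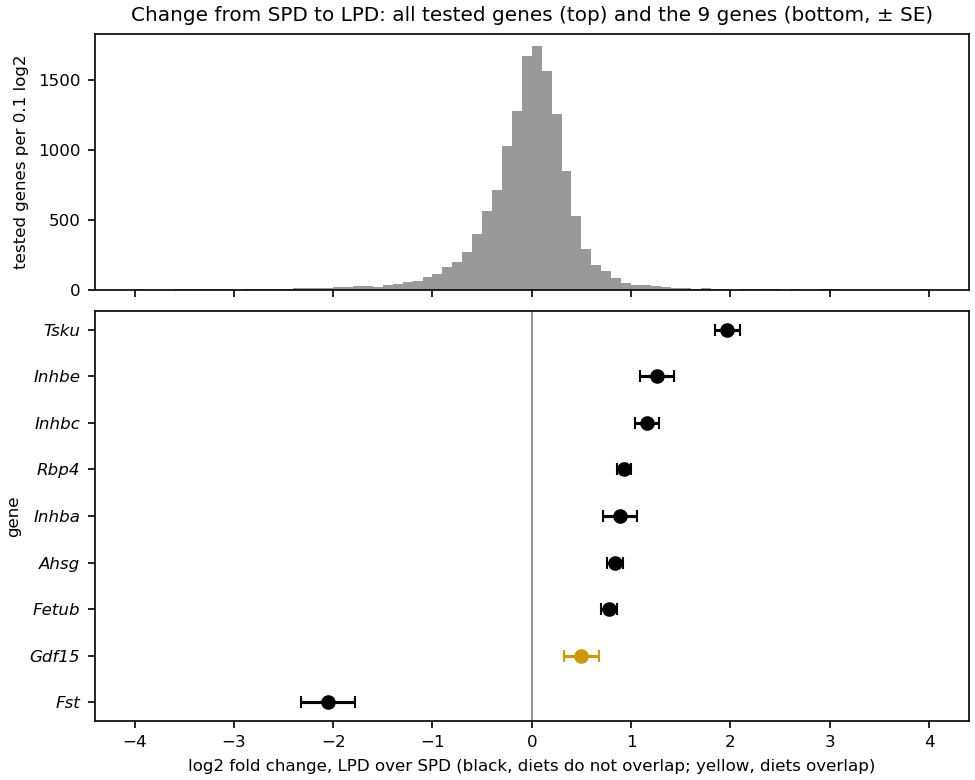
The upper panel counts the tested genes in each 0.1-wide step of log2 fold change, with values beyond 4 in either direction placed at the end, and the lower panel shows each of the 9 genes as a point with its SE. Tsku (1.97) lies farthest to the right and Fst (-2.05) farthest to the left, and Gdf15 (0.50), in yellow, is the gene whose diets overlapped.

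Total counts per library were between 19374676 and 23710930 in SPD and between 19404340 and 23681408 in LPD livers. The treatment and description labels of LPD replicate 1 name the 25% diet, against its title and library code. It was kept in LPD by title, and 8 of the 9 genes were outside the SPD range in it. On the first 2 principal components LPD replicates 2 and 5 lay away from the remaining LPD livers. SPD libraries carry the codes SP1 and SP2, LPD libraries LP4 and LP5, so that code and diet cannot be told apart. Liver identity was checked by 7 hepatocyte markers, whose summed level, most of it albumin mRNA, was 74519.6 to 82949.7 CPM in SPD and 68494 to 96078 CPM in LPD livers. Of these 7 markers 5 rose and 2 did not pass (median 0.433), and 1 fell without LPD replicate 5. The cytochrome Cyp2e1 (1.85 ± 0.16), the tyrosine aminotransferase Tat (1.38 ± 0.21), Serpina1c (0.87 ± 0.13) and the hepatocyte transcription factor Hnf4a (0.41 ± 0.06) rose, and Alb did not pass (-0.2 ± 0.11, adjusted p = 0.174). The 5 markers that rose moved in the same direction as the 8 genes that rose, and Alb did not. The part of hepatocyte content in the results of those 8 genes was not tested. The 4 muscle markers and 5 of 6 pancreas acinar markers were under 1 CPM in every liver, with Myh4, Tnnc2, Prss1, Cpa1 and Pnlip at 0.

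The beta A, beta C and beta E chains of activins rose, by 1.85-fold to 2.4-fold, and the beta B chain, described with the other ligands, did not pass. Inhbe, the activin E chain (ENSMUSG00000047492, chromosome 10, 127348857 to 127354411, minus strand, GRCm38), ranged from 72.7 to 120.1 CPM in SPD livers with a median of 105, and from 156 to 344 CPM in LPD livers with a median of 235. The lowest LPD liver, replicate 3, lay 1.3-fold above the highest SPD liver. The mean went from 102 ± 15.7 to 244 ± 72.6 CPM (SD, n = 6), a log2 fold change of 1.26 ± 0.17 (adjusted p = 4.11e-05). LPD livers spread more widely, with a coefficient of variation of 29.8% against 15.4% in SPD. Replicate 4 (344 CPM) and replicate 2 (310.2 CPM) were the highest and replicate 5 (184 CPM) the next to lowest.

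Inhbc, the activin C chain (ENSMUSG00000025405, chromosome 10, 127356322 to 127370431, minus strand), lies 1910 bases from Inhbe on the same strand. It ranged from 18.3 to 31.7 CPM in SPD livers (median 23.6) and from 43.9 to 65.4 CPM in LPD livers (median 51.4). No SPD liver reached the lowest LPD liver, which was 1.38-fold above the highest SPD one. Its mean rose from 23.8 ± 4.49 to 53.1 ± 8.61 CPM (SD, n = 6), by 1.16 ± 0.12 on the log2 scale (adjusted p = 4.96e-06). Unlike Inhbe, it was highest in LPD replicates 2 (65.4 CPM) and 5 (61.2 CPM), the livers set apart on the principal components. Without these, Inhbc and Inhbe both kept their call.

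Inhba, the activin A chain (ENSMUSG00000041324, chromosome 13, 16011851 to 16031621, plus strand), was low, with 72 to 295 counts per library. It ranged from 3.28 to 6.39 CPM in SPD livers (median 4.7) and from 6.42 to 12.6 CPM in LPD livers (median 8.18). The diets only just failed to overlap, with SPD replicate 4 at 6.39 and LPD replicate 1 at 6.42 CPM. Its mean rose from 4.77 ± 1.04 to 8.78 ± 2.2 CPM (SD, n = 6), by 0.89 ± 0.17 (adjusted p = 0.000836).

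Per kilobase of deposited gene length, Inhbe was the most abundant beta chain in SPD livers at 19.1 CPM, followed by Inhbc at 12.8 and Inhba at 3.12. In LPD livers the levels per kilobase were 45.9, 28.5 and 5.74 CPM in the same order. The deposited length of Inhbe, 5319 bases, exceeds its whole RefSeq gene span of 2447 bases. Over that span the level of Inhbe was 41.6 CPM per kilobase in SPD and 99.7 in LPD livers, so its lead over Inhbc depends on the gene model in size but not in order.

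Fst, which encodes follistatin (ENSMUSG00000021765, chromosome 13, 114452290 to 114458951, minus strand), moved the other way from Inhba, whose dimer, activin A, it binds. SPD livers held 4.05 to 9.11 CPM (median 5.72) and LPD livers 0.602 to 2.44 CPM (median 1.6). The highest LPD liver, replicate 4, lay under the lowest SPD liver, which was 1.66-fold above it. The mean fell from 6.2 ± 1.77 to 1.47 ± 0.66 CPM (SD, n = 6), a 4.15-fold fall (-2.05 ± 0.27, adjusted p = 3.07e-05). Counts per library ran from 12 to 200, and LPD replicates 5 (0.602 CPM) and 2 (0.87 CPM) were the lowest livers. In bulk RNA, fewer cells of a type and less RNA per cell cannot be told apart.

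Some markers of non-parenchymal cells fell beside Fst, where 19.2% of all tested genes were called lower. Of 14 stellate cell markers 7 fell and 1 rose, with a median log2 fold change of -0.385, and their summed level was 728 to 974 CPM in SPD and 550.1 to 861 CPM in LPD livers. It was lowest in LPD replicates 2 (550.1) and 5 (562), against at least 709 in the other LPD livers. Without SPD replicate 3, 4 of the 14 fell, and 4 fell without both LPD replicates. With only SP1 and LP4 libraries 3 stellate and 2 endothelial markers fell. Collagen Col3a1 (-1.13 ± 0.27) and the pericyte gene Rgs5 (-0.57 ± 0.12) were among those that fell. Over all livers, 6 of the 14 stellate markers did not pass, Lrat (-0.11 ± 0.14) among them. Of 10 endothelial markers 4 fell (513 to 576 CPM in sum, then 449 to 525). All 3 tested mesothelial markers fell (3.79 to 13.1 CPM, then 2.61 to 5.65), but 2 of 4 tested fell without both LPD replicates, and Upk3b was not called without any of 3 single livers (SPD 1, SPD 3, LPD 5). Of 7 cholangiocyte markers 1 fell (167 to 459.8 CPM, then 57.3 to 132), or 2 without LPD replicate 1, and 1 rose without LPD replicate 6. The marker that fell, Spp1, went from 246 to 63.3 CPM (-1.95 ± 0.29, adjusted p = 8.88e-05). Spp1 made up most of the summed cholangiocyte level, and over all livers the other 6 tested cholangiocyte markers did not pass. Of 12 macrophage markers 3 fell and 1 rose (794 to 1142 CPM, then 600.4 to 914), and the number that fell was 1 without any of 4 single livers (SPD 2, SPD 3, LPD 2, LPD 5), 5 without LPD replicate 1 and 6 without LPD replicate 3. Over all livers, 8 of the 12 macrophage markers and 6 of the 10 endothelial markers did not pass. The part of non-parenchymal cells in the Fst result was not tested. Without LPD replicates 2 and 5, Fst kept its call.

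Set within each liver, the Inhba to Fst ratio of counts ranged from 0.362 to 1.05 in SPD livers (median 0.871) and from 3.68 to 12.4 in LPD livers (median 5.68). The 6 LPD livers all lay above the 6 SPD livers. The difference of the means was 3.02 on the log2 scale, or 8.1-fold. Since neither gene overlapped between diets and they moved in opposite directions, the ratio had to separate the diets, and no test of it is given as evidence. Per kilobase, Inhba and Fst were at 3.12 and 3.35 CPM in SPD livers, and at 5.74 and 0.796 CPM in LPD livers. The Inhbe to Inhbc ratio was 3 to 5.71 in SPD (median 4.39) and 3.01 to 7.6 in LPD livers (median 4.79), and the diets overlapped. It differed by 0.06 on the log2 scale (exact two-sided permutation p = 0.827, adjusted p = 0.827 over 3 ratios), with within-diet SDs of 0.38 and 0.5. This p does not show that the ratio stayed the same.

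**Figure D2:**
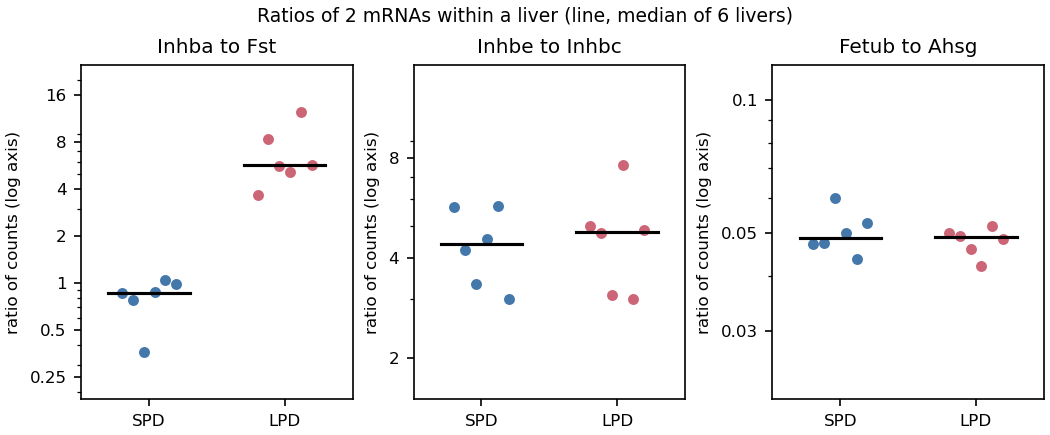
Each point is the ratio of 2 mRNAs' counts in 1 liver on a log axis, and the line is the median of 6 livers. The Inhba to Fst ratio separates the diets (at most 1.05 in SPD and at least 3.68 in LPD livers), whereas the Inhbe to Inhbc and Fetub to Ahsg ratios overlap.

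Receptors of the family mostly missed the threshold. Of 9 tested activin, BMP and TGF-beta receptors, 1 rose, 1 fell and 7 did not pass (median -0.025). Acvr2a, the main activin type II receptor, rose from 17.1 to 22.7 CPM (0.41 ± 0.098, adjusted p = 0.00371), not called in the SP1 and LP4 libraries by themselves (0.26). Tgfbr2, the TGF-beta type II receptor, fell from 107 to 56.6 CPM (-0.92 ± 0.1, adjusted p = 8.68e-06). Acvr1b, the activin type I receptor, did not pass (-0.057 ± 0.09, adjusted p = 0.65), nor did Acvr2b (0.041 ± 0.29). Tgfbr3, the inhibin co-receptor betaglycan, did not pass either (0.14 ± 0.083). It was called in 2 of 22 alternatives, among them leaving out LPD replicate 2 (0.20). The type I receptor Acvr1c had 0 to 2 counts per library and was not tested.

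Among 6 SMAD mRNAs, Smad2 (29.7 to 23.5 CPM, -0.34 ± 0.062, adjusted p = 0.000554) and Smad3 (12 to 9.06 CPM, -0.41 ± 0.1, adjusted p = 0.00552) fell. These encode the SMADs that activin receptors phosphorylate. Smad4, their shared partner, rose from 23.5 to 28.2 CPM (0.26 ± 0.055, adjusted p = 0.0014), and the other 3 did not pass. The number of SMADs that rose was 2 without any 1 of SPD replicate 1 and LPD replicates 1, 2 and 6. Of 13 SMAD target genes 3 rose, 1 fell and 9 missed the threshold (median -0.202). Hamp, which encodes the iron hormone hepcidin, rose from 176 to 501 CPM (1.51 ± 0.27), the cell cycle inhibitor Cdkn1a from 50.4 to 103 CPM (1.03 ± 0.18) and Id1, a BMP target, from 12.5 to 21.9 CPM (0.81 ± 0.096). Ltbp1, a latent TGF-beta binding protein, was the member that fell (-0.41 ± 0.15, adjusted p = 0.0418), and it lost its call without any of 8 single livers (SPD 1, 3, 4, 5 and LPD 2, 3, 4, 5).

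Other antagonists and negative regulators rose in 5 of 11 tested cases, fell in 2 and did not pass in 4 (median 0.122). Skil (0.55 ± 0.12, 18.3 to 26.7 CPM) and Ski (0.29 ± 0.069), co-repressors of SMADs, and the inhibitory Smad7 (0.43 ± 0.14, adjusted p = 0.0208) rose. The follistatin relative Fstl1 fell from 13.9 to 9.42 CPM (-0.56 ± 0.15, adjusted p = 0.00771), as did the ubiquitin ligase Smurf1 (-0.26 ± 0.078, adjusted p = 0.0135). Its relative Smurf2 was among the 5 that rose (0.17 ± 0.054, adjusted p = 0.018). Smad7 and Smurf1 lost their calls without both LPD replicates 2 and 5, and with LPD replicate 1 counted as SPD 3 of the list rose. Skil kept its call throughout, whereas Ski, Fstl1 and Smad7 were not called with only SP1 and LP4 libraries. The inhibin alpha chain Inha (0 to 2 counts per library) and the follistatin relative Fstl3 (4 to 14 counts) were below the filter. Among 13 other ligands of the family 1 rose, 1 fell and 11 did not pass (median -0.007). The beta B chain Inhbb did not pass with 8.14 and 10.1 CPM (0.31 ± 0.21, adjusted p = 0.256), and it was called at 0.56 without LPD replicates 2 and 5. Tgfb1 fell (-0.45 ± 0.11, 20.5 to 15.1 CPM) and Bmp10 rose (0.57 ± 0.17, 3.05 to 4.51 CPM), the latter not called with only SP1 and LP4 libraries. Without SPD replicate 3, 2 ligands rose.

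Activin chains are cut from their precursors by proprotein convertases, of which 5 of 8 tested rose, 1 fell and 2 did not pass (median 0.163). Furin went from 219 to 248 CPM (0.18 ± 0.047, adjusted p = 0.00773, not called with only SP1 and LP4 libraries) and Bmp1, a metalloprotease that frees TGF-beta family ligands, from 72.6 to 91.3 CPM (0.33 ± 0.051, adjusted p = 0.000133). Of this list 2 or 3 rose without any of 7 single livers (SPD 2, 3, 4, 6 and LPD 1, 2, 5).

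**Figure D3:**
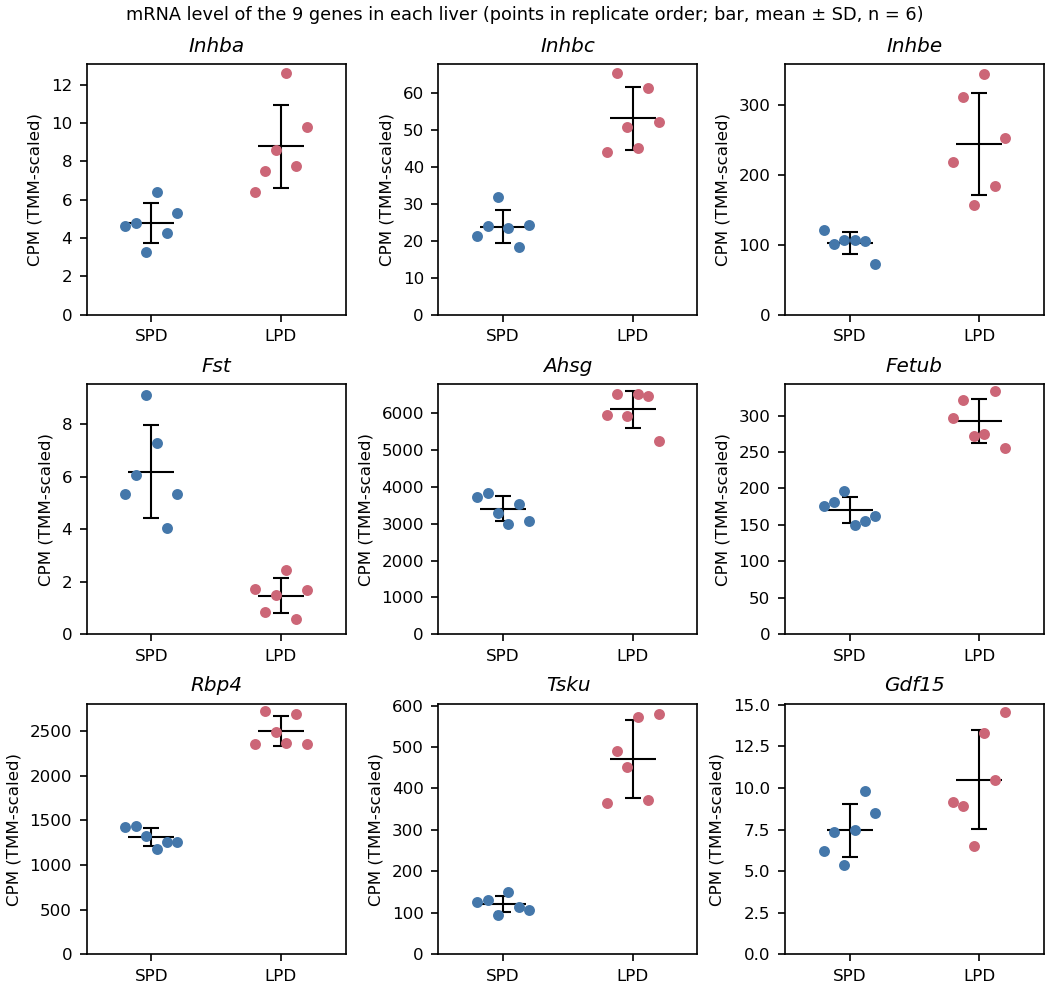
Each panel shows 1 gene, with the TMM-scaled CPM of each liver on a linear axis from 0 and the mean ± SD of 6 livers per diet. The LPD points lie above the SPD points for 7 genes and below them for Fst, and for Gdf15 the ranges overlap (5.37 to 9.84 and 6.53 to 14.6 CPM).

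Ahsg, which encodes fetuin-A, a plasma carrier that keeps calcium phosphate soluble (ENSMUSG00000022868, chromosome 16, 22891277 to 22899449, plus strand), was the most abundant of the 9 mRNAs per kilobase. It ranged from 3005 to 3846 CPM in SPD livers (median 3412) and from 5256 to 6531 CPM in LPD livers (median 6208). The lowest LPD liver, replicate 6, was 1.37-fold above the highest SPD liver. The mean rose from 3412 ± 346 to 6108 ± 500 CPM (SD, n = 6), by 0.84 ± 0.083 (adjusted p = 2.45e-06). Its share of all counts went from 0.335 ± 0.0279% to 0.62 ± 0.0457% (SD), and its rank per kilobase among all genes from 31 to 13.

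Fetub, encoding fetuin-B, an inhibitor of the egg protease ovastacin (ENSMUSG00000022871, chromosome 16, 22918334 to 22939778, plus strand), lies 18884 bases from Ahsg. It ranged from 150.3 to 196 CPM in SPD livers (median 169) and from 255 to 334 CPM in LPD livers (median 286). No livers overlapped between the diets, and the nearest pair was 1.3-fold apart. The mean rose from 170.1 ± 17.6 to 292 ± 30.9 CPM (SD, n = 6), by 0.78 ± 0.081 (adjusted p = 3.98e-06). The Fetub to Ahsg ratio of counts was 0.0436 to 0.0598 in SPD and 0.0421 to 0.0518 in LPD livers, and it differed by -0.06 on the log2 scale (exact permutation p = 0.472, adjusted p = 0.708), with within-diet SDs of 0.16 and 0.11.

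Relatives of the fetuins moved both ways: of 6 tested members of the cystatin superfamily 3 rose, 2 fell and 1 did not pass (median 0.034). Hrg, the histidine-rich glycoprotein of plasma, rose from 535 to 941 CPM (0.81 ± 0.095, adjusted p = 1.16e-05) and the kininogen Kng1 by 0.26 ± 0.065 (adjusted p = 0.00576, not called when LPD replicate 1 was taken as SPD). Cstb, an intracellular protease inhibitor, fell from 81.7 to 43.7 CPM (-0.9 ± 0.09, adjusted p = 2.86e-06), and Spp2 fell too (-0.38 ± 0.078). The kininogen Kng2 (0.18 ± 0.061, adjusted p = 0.0291) lost its call without any of 8 single livers (SPD 1, 2, 3, 5 and LPD 1, 3, 4, 5). With LPD replicate 1 counted as SPD, Hrg was the 1 superfamily member called higher. Of 8 tested partners of fetuins, 2 rose, 5 fell and 1 did not pass (median -0.449). The asialoglycoprotein receptor subunit Asgr2 rose from 90.5 to 143 CPM (0.66 ± 0.077), whereas Asgr1 did not pass (0.19 ± 0.078, adjusted p = 0.0615) except without any 1 of LPD replicates 1, 3, 4 and 6. Insr, the insulin receptor that fetuin-A can inhibit, was called at 0.14 ± 0.054 (adjusted p = 0.0488), and the call was lost in 18 of 22 alternatives, among them leaving out any SPD liver or any 1 of LPD replicates 2, 4, 5 and 6. The meprin Mep1a (1.35 to 0.173 CPM, 0 to 41 counts per library), Anxa2 (-0.99 ± 0.19) and the endotoxin receptor Tlr4 (-0.65 ± 0.15) fell.

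Rbp4 (ENSMUSG00000024990, chromosome 19, 38116629 to 38125281, minus strand) had the smallest spread of the 9 genes among livers of a diet, with coefficients of variation of 7.75% and 6.84%. It ranged from 1181 to 1436 CPM in SPD livers (median 1289.9) and from 2356 to 2725 CPM in LPD livers (median 2426). The lowest LPD liver was 1.64-fold above the highest SPD liver. The mean rose from 1312 ± 102 to 2497 ± 171 CPM (SD, n = 6), by 0.93 ± 0.069 (adjusted p = 2.14e-07), and the share of all counts from 0.129 ± 0.00911% to 0.254 ± 0.00647% (SD).

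The other genes of retinoid handling were split, with 7 of 31 tested higher, 8 lower and 16 not past the test (median 0.036). Ttr, the plasma partner of RBP4, did not pass with 3989.6 and 4547 CPM (0.19 ± 0.099, adjusted p = 0.143), and the hepatic RBP4 receptor Stra6l fell from 109.9 to 92.6 CPM (-0.25 ± 0.059, adjusted p = 0.00363, not called when LPD replicate 1 was taken as SPD). Lrat, which esterifies retinol for storage in stellate cells, did not pass (-0.11 ± 0.14, adjusted p = 0.587). The retinaldehyde reductase Rdh11 fell from 113 to 31.5 CPM (-1.85 ± 0.12) and Rdh9 rose from 137 to 266 CPM (0.95 ± 0.086). Aldh1a7 fell from 414 to 263 CPM (-0.66 ± 0.076) and the retinoic acid receptor Rarb from 8.99 to 4.83 CPM (-0.9 ± 0.12).

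Tsku, a secreted leucine-rich repeat protein of liver (ENSMUSG00000049580, chromosome 7, 98350668 to 98361328, minus strand), showed the largest rise of the 9 genes and the widest gap between diets. SPD livers held 94.8 to 149.6 CPM (median 120.3) and LPD livers 364 to 579.9 CPM (median 471). The lowest LPD liver, replicate 1, was 2.44-fold above the highest SPD liver. The mean rose 3.92-fold, from 121 ± 19.6 to 472 ± 94.1 CPM (SD, n = 6; 1.97 ± 0.13, adjusted p = 8.98e-08). Per kilobase its level went from 50.1 to 196 CPM. Of 9 tested extracellular matrix proteoglycans with the same kind of repeat, 2 fell and 7 did not pass (median -0.254). Lum (-0.74 ± 0.24, adjusted p = 0.0211) and Fmod (-0.82 ± 0.28, adjusted p = 0.0293) were the 2 that fell. Neither was called without both LPD replicates 2 and 5, nor was Lum without SPD replicate 3 or Fmod without any of 5 single livers (SPD 1, SPD 5, LPD 2, LPD 3, LPD 5).

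Gdf15 (ENSMUSG00000038508, chromosome 8, 70629393 to 70632456, minus strand) was the weakest change. It ranged from 5.37 to 9.84 CPM in SPD livers (median 7.41) and from 6.53 to 14.6 CPM in LPD livers (median 9.84). The diets overlapped: LPD replicate 3 (6.53 CPM) lay below 4 SPD livers, and SPD replicate 5 (9.84 CPM) lay above 3 LPD livers. The mean went from 7.45 ± 1.6 to 10.5 ± 2.99 CPM (SD, n = 6), by 0.5 ± 0.18 (adjusted p = 0.04). This call was lost in 11 of 22 alternatives, among them leaving out any of 7 single livers (SPD 1, 2, 3, 4 and LPD 4, 5, 6). The estimate was lowest without LPD replicate 6, at 0.38 (adjusted p = 0.103). The receptor Gfral had 0 counts in every liver.

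Regulators of stress-induced transcription, some of which are known to act on Gdf15, rose in 8 of 13 tested cases, fell in 1 and did not pass in 4 (median 0.461). Ddit3, which encodes CHOP, went from 7.14 to 18.3 CPM (1.36 ± 0.26, adjusted p = 0.000681), Atf3 from 9.55 to 21.7 CPM (1.19 ± 0.29, adjusted p = 0.00434) and Cebpg from 51.3 to 89.3 CPM (0.8 ± 0.062, adjusted p = 2.74e-07). Atf4 rose from 64.2 to 88.3 CPM (0.46 ± 0.15, adjusted p = 0.0227), but was not called by limma-voom, nor when SP1 and LP4 libraries were used by themselves. Trp53 did not pass (0.17 ± 0.068, adjusted p = 0.0654). It was called in 4 of 22 alternatives, among them leaving out SPD replicate 5 or LPD replicate 5. Nfe2l2, the oxidative stress factor NRF2, fell from 95.1 to 67 CPM (-0.5 ± 0.075). Of 16 tested targets of the same response 9 rose, 2 fell and 5 did not pass (median 1.077). Among those that rose were Trib3 (2.9 ± 0.22), Atf5 (1.33 ± 0.071), Herpud1 (1.2 ± 0.056) and Slc3a2 (0.96 ± 0.077). Those that fell were Slc7a11 (-1.38 ± 0.42, 2 to 43 counts per library) and Aldh18a1 (-0.91 ± 0.23). Without both LPD replicates 2 and 5, 1 target was called lower. The target list was drawn up with the rise of stress targets in these livers already known and is no independent evidence of it.

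**Figure D4:**
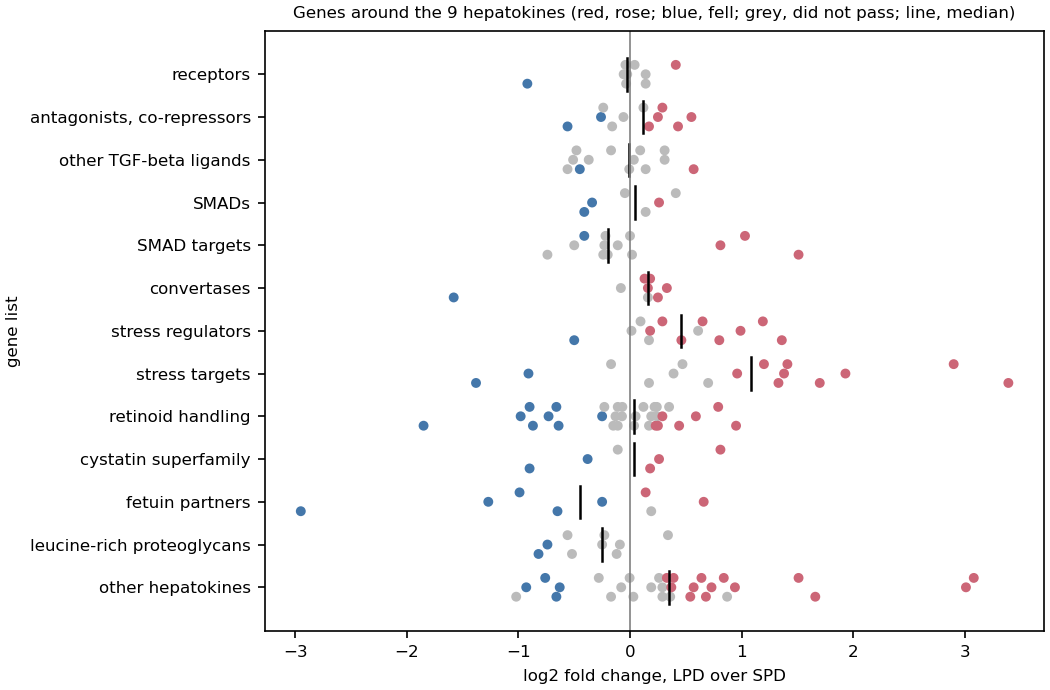
Each point is a tested gene of 1 of 13 lists around the 9 genes, placed by its log2 fold change, and the black line is the median of the list. Stress targets have the highest median (1.077) and fetuin partners the lowest (-0.449), while receptors, other TGF-beta ligands and retinoid handling have medians close to 0.

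Other liver-secreted hormones and plasma factors rose in 14 of 30 tested cases, fell in 4 and did not pass in 12 (median 0.344). Igfbp2 (4.26 to 34.5 CPM, 3.01 ± 0.25) and Igfbp1 (108 to 342 CPM, 1.66 ± 0.29), which bind insulin-like growth factors, rose. Lect2 rose from 72.6 to 120.3 CPM (0.73 ± 0.096). Angptl8 (0.68 ± 0.2, adjusted p = 0.0134) rose but was not called without both LPD replicates 2 and 5. Selenop, the plasma selenium carrier and the most abundant of those named, did not pass with 10156 and 9043 CPM (-0.17 ± 0.088, adjusted p = 0.144). Sparc, a matrix protein, fell (-0.76 ± 0.091). The 13 lists together held 172 tested genes, of which 58 rose (33.7%, against 20.7% of all tested genes), 32 fell (18.6%, against 19.2%) and 82 missed the threshold (median 0.127). These lists were chosen with results of these livers known, so nothing is read from the difference.

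The LPD livers did not rank alike for the 9 genes. Replicate 4 was among the highest 2 LPD livers for 6 genes (and the highest for 3) and replicate 2 for 5, whereas replicate 3 was so for none. Replicates 1 and 6 were each the lowest LPD liver for 3 genes. For the hormone Fgf21, which rose from 14.8 to 125 CPM (3.08 ± 0.34, adjusted p = 8.02e-06), replicates 4 (213 CPM) and 6 (195 CPM) were highest and replicates 3 (51.9 CPM) and 5 (56.8 CPM) lowest. The same 2 livers, replicates 4 and 6, were highest for Tsku (573 and 579.9 CPM), Gdf15 (13.3 and 14.6 CPM) and Inhba (12.6 and 9.77 CPM). For Ahsg, Fetub, Rbp4 and Inhbc, replicate 2 was among the highest 2, and replicate 5 was for Fetub (334 CPM), Rbp4 (2689 CPM) and Inhbc (61.2 CPM).

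**Figure D5:**
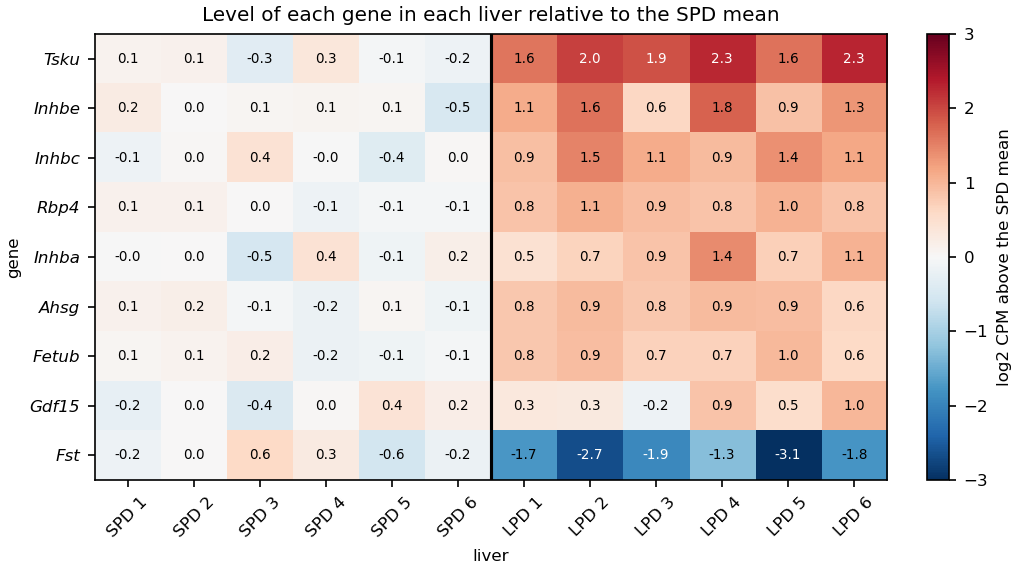
Rows are the 9 genes, columns the 12 livers, and each cell is the log2 CPM of that liver minus the SPD mean of the gene. LPD livers are above the SPD mean for Tsku, Inhbe, Inhbc, Rbp4, Inhba, Ahsg and Fetub, below it for Fst, and mixed for Gdf15.

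For each gene, the other genes with the most similar course over the 12 livers were found as those with the smallest root mean square difference of centred log2 CPM, among 10824 candidates. This is a description of likeness in these livers, in which the diet difference takes part. Fetub was closest to Slc17a2 (0.0799), Ndrg2 (0.0889) and its relative Hrg (0.093), and Rbp4 to Cdip1 (0.0787), Dpys (0.0855) and Acat1 (0.0867). Ahsg was closest to Slc25a33 (0.122) and also had Cdip1 and Dpys among its nearest. The activin chains had different neighbours: Cdkn1a (0.193), Plin5 (0.207) and Cln8 (0.216) for Inhba, Ugt1a1 (0.153), Cyp3a11 (0.16) and Mug1 (0.163) for Inhbc, and Kdm6b (0.227), Trmt61a (0.246) and Kbtbd11 (0.253) for Inhbe. Fst was nearest to Mcm5 (0.293), Itih5 (0.3) and Cdk1 (0.403), Tsku to Gpat3 (0.282), Adgrg2 (0.286) and Cyp2b10 (0.319), and Gdf15 to Snhg5 (0.187), Armc6 (0.194) and Zup1 (0.236).

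Several of the 9 genes overlap an antisense gene or pseudogene on the other strand, and whether strand was used in counting is not given in the sources used here. Gm30505, over Ahsg, had 7 to 67 counts per library against at least 56914 for Ahsg. B230303A05Rik, over Inhba, had 0 to 9 counts, Gm47200, over Inhbc and Inhbe, 0 to 1, and Gm47040, over Fst, 0 to 2.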

How the data were processed

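RNA of 12 livers (6 separate mice per diet, per the labels' protocols) was extracted with TRIzol, treated with DNase I and made into Illumina TruSeq RNA libraries. The submitters' processing notes list TopHat, DESeq2 and the build mm10 with no version or role. For the counting program and its use of strand nothing is given in the sources used here. The values are the authors' expected counts per gene as deposited, not scaled between libraries. A deposited gene length was used for levels per kilobase. Totals were 19374676 to 23710930 counts.

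Expected counts were rounded, filtered with filterByExpr (minimum count 10, minimum total 15), scaled by TMM and tested in R 4.3.3 with edgeR 4.0.16 (quasi-likelihood F test, no covariate, Benjamini-Hochberg over 13768 genes, threshold 0.05). SE is the absolute log2 fold change over the square root of F. On simulated counts with 200 of 13768 genes changed by 1 on the log2 scale, 185 were recovered with 10 false calls. In these livers 39.9% of tested genes were called, a share that the simulation did not try. Ratios of counts (pseudocount 0.5) were tested by exact permutation over 924 labelings in scipy 1.17.1. Coordinates are from GENCODE M21, and promoters from RefSeq (GRCm38.p6). Similar genes had to have a mean log2 CPM of at least 1 (prior count 2).

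The 9 genes, the 13 pathway lists, the 11 marker lists, the tests and the alternatives were chosen with earlier results of these data known. Named genes are the 9, and up to 4 called genes with the smallest adjusted p per list. Also named are a set of receptors, regulators and hormones, always given, and the 3 most similar genes for each of the 9. Other antisense or untested genes are named for their counts. Alb, Smurf2, Slc7a11, Aldh18a1 and markers at 0 were chosen after their values were seen. Of the marker lists not described above, 1 of 3 neutrophil markers (S100a8) fell, a call lost in 12 of 21 alternatives, among them leaving out both LPD replicates 2 and 5, the 3 tested lymphocyte markers did not pass, and the 1 tested adipocyte (Fabp4) and acinar (Cela1) markers fell. A few genes that this rule would name are left out of the text. The symbol Ddit3 was on 2 rows, and the row with most counts was read. The alternatives tried were 2 other scalings in edgeR (DESeq2 size factors, upper quartile), no or a stricter filter (1 CPM in 6 libraries), limma-voom (limma 3.58.1) with sample weights, a Wald test (DESeq2 1.42.0), a block on replicate number, leaving out each library, LPD replicate 1 counted as SPD, the SP1 and LP4 libraries alone, and LPD replicates 2 and 5 left out together.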

Additional observations from a re-analysis of the deposited data

Results flagged for a closer look

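Over 24 groups of livers examined for a distant liver, 1 had a value set apart from the rest: in SPD replicate 3 the Inhba to Fst ratio of counts was 0.362, the lowest of the SPD livers, whose median was 0.871. That liver had the lowest SPD Inhba (3.28 CPM) and the highest SPD Fst (9.11 CPM). About 1 in 20 such groups is set apart by chance.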

How the results depend on the processing

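In 22 alternatives 8 of the 9 genes kept direction and call: Ahsg 0.70 to 0.88, Fetub 0.63 to 0.83, Rbp4 0.79 to 0.96, Inhba 0.76 to 0.99, Inhbc 1.01 to 1.26, Inhbe 1.08 to 1.37, Tsku 1.67 to 2.04 and Fst -2.25 to -1.74, with adjusted p up to 0.0171. Gdf15 kept its direction in all 22 but was called in 11: it was not called by limma-voom (0.45, adjusted p = 0.0734), when LPD replicate 1 was taken as SPD (0.49, 0.0573), with only SP1 and LP4 libraries (0.53, 0.0697) or without LPD replicates 2 and 5 (0.56, 0.0503), and with 1 liver left out it ranged from 0.38 to 0.61. Genes called with only SP1 and LP4 libraries were 1827 higher and 1693 lower, with 4 livers per diet.

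The Inhba to Fst ratio was 3.00 (adjusted p = 0.0857) with only SP1 and LP4 libraries, where the smallest exact p is 0.0286 before adjustment, so that this value could not pass beside the other 2 ratios. The Inhbe to Inhbc ratio changed sign when LPD replicate 1 was taken as SPD (-0.00013), and with 1 liver left out it ranged from -0.092 to 0.18, below 0 without SPD replicate 3 (-0.012), SPD replicate 6 (-0.042) or LPD replicate 4 (-0.092). Estimates of 3 genes that had not passed changed sign: Acvr1b (-0.10 to 0.0077 with 1 liver left out, above 0 without LPD replicate 2, and 0.059 without LPD replicates 2 and 5), Acvr2b (-0.11 to 0.21 with 1 liver left out, at -0.033 without SPD replicate 2, -0.11 without SPD replicate 5, -0.043 without LPD replicate 1 and -0.015 without LPD replicate 3, -0.11 when LPD replicate 1 was taken as SPD and -0.086 with only SP1 and LP4 libraries) and Lrat (-0.17 to 0.017 with 1 liver left out, above 0 without SPD replicate 6, 0.036 with only SP1 and LP4 libraries and 0.061 without LPD replicates 2 and 5). Their causes were not tested. Of 88 other genes considered for naming, 53 kept direction and call throughout.

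Deviations of same-numbered livers from their diet means were weakly correlated (-0.0539 to 0.0968). Of the 6 SPD livers, 2 correlated best with the LPD liver of their own number. The numbers were not taken as pairs, though weak correlations cannot exclude a pairing. With the replicate block 2668 genes were higher and 2562 lower, Gdf15 was 0.48 (adjusted p = 0.00815), and the Inhba to Fst ratio was 3.02 (adjusted p = 0.0938) by paired sign-flip permutation, the smallest that 6 pairs allow beside the other 2 ratios. Depth limits Fst most, with as few as 12 counts in a library.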
